A study of Mus musculus with 378 samples.

Results

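Entpd1, Nt5e and Adora2a encode CD39, CD73 and the adenosine A2a receptor, and they are 3 of the 23420 genes in the deposited expression table. They were chosen by name from measured values: Entpd1 and Nt5e were already known to differ between the genotypes in these CD8 cells, so the levels below are a description and carry no test. CD39 is a membrane enzyme that strips phosphates from extracellular ATP and ADP to leave AMP. CD73 removes the last phosphate and so releases adenosine. The A2a receptor binds adenosine and raises cyclic AMP inside T cells, which dampens their activation. In mice CD39 is abundant on regulatory T cells, and in tumours it also marks CD8 T cells of the exhausted state. CD73 is found in mice on regulatory T cells and on resting, naive-like T cells.

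The T cells came from B16F10 tumours, a transplanted melanoma line, in C57BL/6 mice labelled as lacking Il27ra (KO) or WT. Il27ra encodes a chain of the receptor for the cytokine IL-27, and the stated question was which genes IL-27 induces in T cells of the tumour. Single cells were profiled with Smart-seq2, a full-length cDNA method, as 92 CD8 and 94 CD4 cells labelled KO and 94 CD8 and 94 CD4 cells labelled WT, with 1 population library for each of the 4 kinds. Of these, 74 CD8 and 78 CD4 cells labelled KO and 67 CD8 and 79 CD4 cells labelled WT had at least 1000 genes above 0 and were used. The labels give no age, sex or number of animals, and because the protocol text speaks of CD8+ cells alone, the name CD4 is taken from the titles. Each genotype and cell type is therefore 1 sample, its cells are not replicates, and no difference between genotypes could be tested. The titles mark WT CD4 libraries p3 and all others p2, with no account of what this stands for. Each contrast with WT CD4 cells is therefore also one between these marks. The titles also give each genotype and cell type its own unexplained word: bird (KO CD4), cat (WT CD8), dog (WT CD4) and rabbit (KO CD8). Every contrast between these groups, KO with WT CD8 cells included, is thus also one between title words. SDs are over cells, and intervals on shares of cells are exact Clopper-Pearson 95% intervals that cover counting error only.

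CD4 cells were also divided by whether Foxp3, the lineage factor of regulatory T cells, was above 0 FPKM, the length- and depth-scaled unit of the table. Throughout, a gene is called found in a cell where its value is above 0 FPKM. The division gave 39 Foxp3+ and 39 Foxp3- cells labelled KO, and 30 Foxp3+ and 49 Foxp3- WT cells. Il2ra, the high-affinity interleukin-2 receptor chain, was found in 89.7% of Foxp3+ and 30.8% of Foxp3- cells labelled KO, and in 83.3% of Foxp3+ and 16.3% of Foxp3- WT cells. Ikzf2, the factor Helios, was found in 79.5% of Foxp3+ and 7.69% of Foxp3- cells labelled KO, and in 100% of Foxp3+ and 16.3% of Foxp3- WT cells. The split thus follows other regulatory genes, although a Foxp3 value of 0 in a single cell can also be a missed transcript.

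Medians of genes above 0 per cell were 2797 in CD8 and 2650.5 in CD4 cells labelled KO, against 2919 in CD8 and 2307 in CD4 WT cells. Reads per cell, a rough estimate from the steps between low values, had medians of 422085 in CD8 and 408941 in CD4 cells labelled KO, against 311830 in CD8 and 222237 in CD4 WT cells. Il27ra did not check the labels: it was found in 52.7% of CD8 cells labelled KO and 38.8% of WT CD8 cells, and in 52.6% of CD4 cells labelled KO and 48.1% of WT CD4 cells, and a transcript outside a deleted stretch would still be counted. The genotype is therefore given as labelled throughout. Libraries under the 1000-gene minimum held few T cell transcripts, with Cd3d found in 13 and Cd3e in 2 of 76. Their values therefore do not bound false detection in the deeper cells used. Entpd1 was above 0 in 2 of these 76 libraries, and Nt5e and Adora2a were each at 0 in all 76, which allows a share of up to 3.95% by the limit of 3 counts and 4.74% by the exact interval.

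The genes lie apart in the genome (GRCm38, GENCODE M21, all on the + strand): Entpd1 at chr19:40612366-40741602, Nt5e at chr9:88327197-88372092 and Adora2a at chr10:75316877-75334784. RefSeq (GRCm38.p6) lists promoters for Entpd1 and Nt5e. Entpd1 has 2 of them, whose starts are 47404 bases apart, and the table gives 1 value per gene, so the start in use cannot be told from it. The 250 bases before the second start, at position 40659770, are shown because Entpd1 is the member whose level differed most in CD8 cells. The capitals mark CGTCA, the complement of TGACG, which is the core of sites bound by the cyclic AMP response element binding protein.

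Entpd1 second promoter, chr19:40659520-40659769, + strand: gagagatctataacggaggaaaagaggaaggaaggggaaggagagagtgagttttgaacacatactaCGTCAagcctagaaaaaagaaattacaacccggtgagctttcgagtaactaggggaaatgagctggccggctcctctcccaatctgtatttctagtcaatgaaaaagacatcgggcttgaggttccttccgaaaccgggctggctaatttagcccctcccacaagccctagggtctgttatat

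Each RefSeq window runs from 250 bases before to 50 after the start, and both strands were searched. The first Entpd1 window, which overlaps the divergent gene Tctn3, held 1 TGACG match and the Nt5e window, chr9:88327359-88327658, whose upstream part lies inside the first exon of the GENCODE transcript, held none, while 20.8% of 32817 mouse windows hold at least 1. TTCNNNGAA, the pattern bound by STAT factors, was found in none of the 3 windows and in 8.29% of all windows. TGACG was added to the search after the levels had been seen, and a match is only a run of letters.

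Entpd1, the CD39 gene, was lower in CD8 cells labelled KO. It was above 0 FPKM in 12 of 74 CD8 cells labelled KO (16.2%, interval 8.67 to 26.6%) and in 35 of 67 WT CD8 cells (52.2%, interval 39.7 to 64.6%). Its values over all cells ran from 0 through a median of 0 to 442.3 FPKM in CD8 cells labelled KO, and from 0 through a median of 14.4 to 823.9 FPKM in WT CD8 cells. The 2 sets of cells overlap over most of that range, and they differ mainly in how many cells are at 0. Among cells with the transcript the medians were close, 184.3 FPKM in the 12 CD8 cells labelled KO and 196.5 FPKM in the 35 WT cells. Mean log2(FPKM + 1) was 1.10 ± 2.61 in CD8 cells labelled KO and 3.70 ± 3.78 in WT CD8 cells (SD over 74 and 67 cells), a difference of -2.60.

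The population libraries of CD8 cells had Entpd1 at 57.1 FPKM in the one labelled KO and 116.1 FPKM in the WT one. That is a log2 difference of -1.01. In these bulk libraries fewer cells with a transcript and less RNA per cell cannot be told apart. Estimated reads were lower, and genes per cell slightly higher, in WT CD8 cells. With every cell thinned to 100000 estimated reads, Entpd1 was found in 15.7% of 73 CD8 cells labelled KO and 61.9% of 52 WT CD8 cells, against 16.4% and 63.5% of the same cells before thinning. This left out 1 shallower CD8 cell labelled KO and 15 WT CD8 cells.

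**Figure D1:**
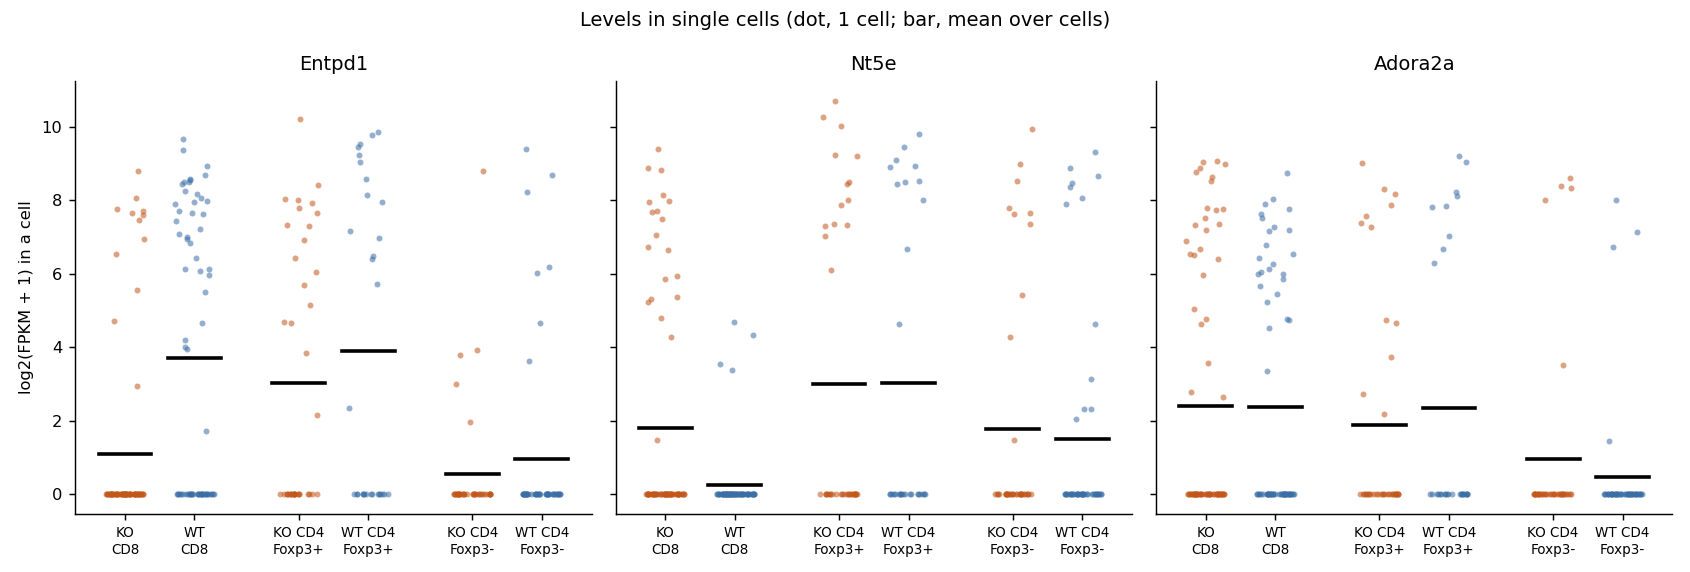
Levels of Entpd1, Nt5e and Adora2a as log2(FPKM + 1) on the vertical axis. Each dot is 1 cell and each bar the mean over cells of a group, with cells labelled KO in orange and WT cells in blue. Most cells of most groups lie at 0, and the Nt5e panel shows 4 WT CD8 cells above 0, none of them among the highest of the 20 positive CD8 cells labelled KO.

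In CD4 cells Entpd1 followed Foxp3 in both genotypes. It was found in 18 of 39 Foxp3+ cells labelled KO (46.2%) and in 5 of 39 Foxp3- cells labelled KO (12.8%). In WT cells it was found in 15 of 30 Foxp3+ cells (50%) and in 7 of 49 Foxp3- cells (14.3%). The Foxp3+ intervals, 30.1 to 62.8% in cells labelled KO and 31.3 to 68.7% in WT cells, lie above the Foxp3- intervals of 4.30 to 27.4% and 5.94 to 27.2%. Mean log2(FPKM + 1) was 3.04 ± 3.57 in Foxp3+ and 0.55 ± 1.69 in Foxp3- cells labelled KO, and 3.89 ± 4.20 in Foxp3+ and 0.96 ± 2.48 in Foxp3- WT cells. Foxp3+ cells also held more genes. In WT cells the medians were 3030 in Foxp3+ and 2482 in Foxp3- cells with Entpd1, and 2749 and 2100.5 without it. In cells labelled KO they were 2844 and 2501 with Entpd1, and 2786 and 2405.5 without. Matching on genes detected made the difference in WT cells smaller, and the part of depth was not tested.

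Il2ra was examined within the Foxp3 classes. Among Foxp3+ cells labelled KO, Entpd1 was found in 18 of 35 with Il2ra and in 0 of 4 without. Among Foxp3+ WT cells it was found in 13 of 25 with Il2ra and in 2 of 5 without. Among Foxp3- cells it was found in 3 of 12 with and 2 of 27 without Il2ra labelled KO, and in 3 of 8 with and 4 of 41 without in WT. The classes with 4, 5, 8 and 12 cells are too small to place a share closely. Between genotypes, all CD4 cells together had shares of 29.5% in those labelled KO and 27.8% in WT, with a difference in mean log2(FPKM + 1) of -0.28. The CD4 population libraries held 85.5 FPKM in the one labelled KO and 113.2 FPKM in the WT one.

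By mean log2(FPKM + 1) the order of Entpd1 levels from high to low was Foxp3+ WT CD4, WT CD8, Foxp3+ CD4 labelled KO, CD8 labelled KO, Foxp3- WT CD4 and Foxp3- CD4 labelled KO. By share of cells WT CD8 stood first, and by mean FPKM Foxp3- WT CD4 (31.8) stood above CD8 labelled KO (26.98). The intervals of the shares of the first 3 groups overlap one another, as do those of the last 3. CD8 cells labelled KO thus stood near the Foxp3- CD4 cells, and WT CD8 cells near the Foxp3+ CD4 cells.

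Entpd1 marked a distinct set of WT CD8 cells. Gzmb, the cytotoxic protease granzyme B, was found in 97.1% of the 35 WT CD8 cells with Entpd1 and in 12.5% of the 32 without. The inhibitory receptor genes Pdcd1 (94.3% with, 25% without), Havcr2 (91.4% with, 18.8% without) and Lag3 (97.1% with, 31.2% without) divided the same way. Tox, a factor of the exhausted state, was found in 85.7% with and 25% without. Tcf7, the factor TCF-1 of stem-like and memory cells, was found in 0 of 35 WT CD8 cells with Entpd1 and in 16 of 32 without (50%). Il7r, a survival receptor of resting cells, was found in 5.71% with and 46.9% without. Il10, an anti-inflammatory cytokine, was found in 34.3% with and 3.12% without. Of the WT CD8 cells, 11 lacked B2m or every Cd3 gene, transcripts that each T cell should carry, and Entpd1 was found in 0 of them. All 11 are therefore among the 32 without Entpd1, and the shares above include them.

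Cells with Entpd1 held more genes, with medians of 3958 against 2461.5 in WT CD8 cells and 3796.5 against 2761.5 in CD8 cells labelled KO, so part of a higher share could follow from depth. In WT CD8 cells weighted to equal numbers in bins of 500 genes detected, with a total weight of 12 cells each, Gzmb stood at 100% with and 13.3% without, Pdcd1 at 91.7% with and 40.7% without, and Tcf7 at 0% with and 71.8% without. Gzmb, Pdcd1 and Tcf7 thus kept their direction at equal gene number, while Ikzf2, Tnfrsf18, Cd69 and Slamf6 turned. Ikzf2 went from 51.4% with and 31.25% without to 33.3% with and 49.4% without. Tnfrsf18 went from 71.4% with and 34.4% without to 50% with and 52.65% without. The part of depth in these contrasts was not tested.

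The 12 CD8 cells labelled KO with Entpd1 shared part of this profile. Gzmb was found in 83.3% of them and in 24.2% of the 62 without, and Tcf7 in 16.7% with and 62.9% without. Pdcd1 was found in 41.7% with and 25.8% without, Havcr2 in 41.7% with and 14.5% without, and Tox in 25% with and 24.2% without. With the same weighting, a total of 10 cells each, Gzmb stood at 82.5% with and 18.7% without and Tcf7 at 17.5% with and 52.1% without. Pdcd1 then stood at 35% with and 28.1% without, Havcr2 at 35% with and 26.6% without, and Tox at 17.5% with and 38.3% without. The contrasts for Gzmb and Tcf7 remained, while those for Pdcd1 and Havcr2 narrowed and that for Tox turned. Il7r was found in 50% of the 12 cells, and Il10 in 0 of 12. Each share over 12 cells has a wide interval, 15.2 to 72.3% for Pdcd1.

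Markers of other cell types were found more often beside Entpd1 in CD8 cells labelled KO, and less clearly so in WT CD8 cells. Cells with Entpd1 held more genes, and these marker counts were not matched on genes detected. Of the 12 positive cells, 6 held 3 or more markers of macrophages, dendritic cells or class II antigen presentation, against 6 of the 62 other CD8 cells labelled KO. In WT CD8 cells these were 5 of the 35 positive and 0 of the 32 other cells. At least 1 of 9 macrophage and monocyte markers was found in 58.3% of the 12 positive and 17.7% of the 62 other CD8 cells labelled KO, and in 22.9% of the 35 positive and 18.8% of the 32 other WT CD8 cells. In CD8 cells labelled KO their summed level ran from 0 through a median of 6.58 to 40.8 in the positive and from 0 through 0 to 20.9 in the other cells, as summed log2(FPKM + 1). Of these markers Fcgr1 was at 0 in all 12 positive cells, and C1qa, C1qb, C1qc, Cd14, Csf1r and Fcgr1 were at 0 in all 62 others. Macrophages and dendritic cells also express CD39, and the part of such RNA in the Entpd1 values was not tested. Without the cells that held 3 or more of these markers the difference in mean log2(FPKM + 1) was -2.85, and without those that lacked B2m or every Cd3 gene, transcripts that each T cell should carry, it was -3.50.

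**Figure D2:**
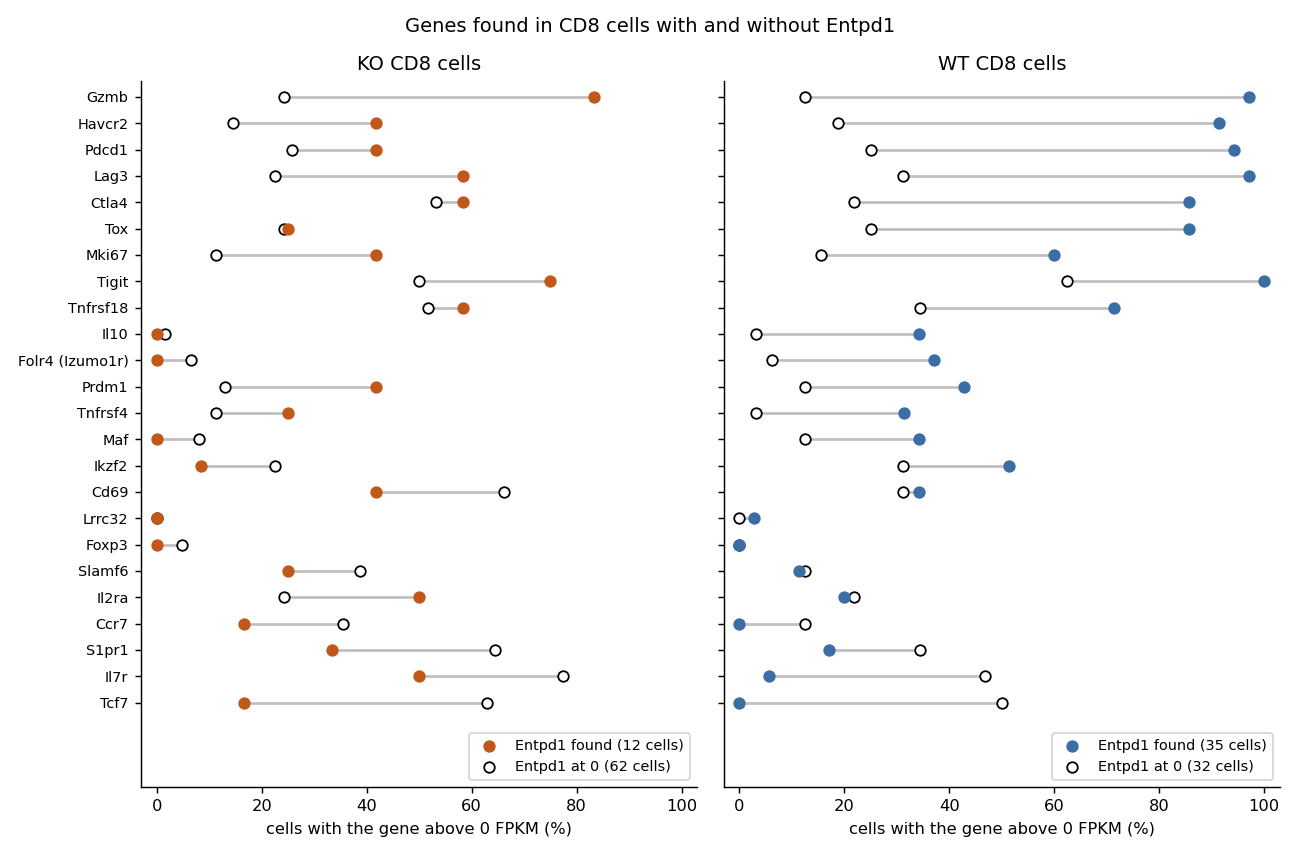
Share of CD8 cells in which each companion gene was above 0 FPKM, in percent, for cells with Entpd1 (filled) and cells with Entpd1 at 0 (open). Cells labelled KO are on the left and WT cells on the right. Gzmb, Havcr2, Pdcd1 and Lag3 stand widest apart at the top of the WT panel and Tcf7 and Il7r at its foot, and the gaps for Pdcd1 and Tox are narrower in the panel of cells labelled KO.

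Entpd1 also differed between the genotypes among CD8 cells with many inhibitory receptors. CD8 cells were grouped by how many of Pdcd1, Havcr2, Lag3 and Tigit were above 0. With 3 or 4 of them found, Entpd1 was present in 5 of 14 CD8 cells labelled KO (35.7%, interval 12.8 to 64.9%) and in 35 of 40 WT CD8 cells (87.5%, interval 73.2 to 95.8%). These intervals do not overlap, but the classes differ in makeup, with 8 of the 14 cells labelled KO and 32 of the 40 WT cells holding all 4. With exactly 4, Entpd1 was present in 4 of 8 CD8 cells labelled KO (interval 15.7 to 84.3%) and 29 of 32 WT CD8 cells (interval 74.98 to 98.02%). With exactly 3 it was present in 1 of 6 CD8 cells labelled KO (interval 0.421 to 64.1%) and 6 of 8 WT CD8 cells (interval 34.9 to 96.8%). The shares were lower in cells labelled KO at both numbers, and at each number the intervals overlap. With 0 to 2 found, Entpd1 was present in 7 of 60 CD8 cells labelled KO (11.7%) and in 0 of 27 WT CD8 cells, which allows a share of up to 11.1% by the limit of 3 counts and 12.8% by the exact interval. In WT CD8 cells every positive cell therefore held at least 3 of the receptors, while 7 of the 12 positive CD8 cells labelled KO held fewer. With receptors counted only above 10 FPKM, Entpd1 was present in 2 of 31 WT CD8 cells with 0 to 2 of them. Cells that lacked B2m or every Cd3 gene make up part of the class with 0 to 2 receptors. Without them, Entpd1 was present in 5 of 57 CD8 cells labelled KO and 0 of 16 WT CD8 cells (interval 0 to 20.6%). Cells that held 3 or more markers of other cell types are also part of this class. Without those cells, Entpd1 was present in 3 of 51 CD8 cells labelled KO (interval 1.23 to 16.2%) and 0 of 27 WT CD8 cells (interval 0 to 12.8%).

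The median of genes per cell was 3598 in the 14 CD8 cells labelled KO and 3769 in the 40 WT CD8 cells with 3 or 4 receptors. The difference of -51.8 percentage points lay between -58.4 and -51.5 points over 6 other settings, which were chosen after the data had been seen. They left out cells with markers of other types or without T cell transcripts, raised the gene minimum, matched cells on genes detected, or raised the threshold for Entpd1 or for the receptors to 10 FPKM. Fewer CD8 cells labelled KO held 3 or 4 receptors in the first place, 14 of 74 against 40 of 67 in WT, beside the lower share of Entpd1 within that class.

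Cells were also divided by Gzmb and Tcf7. In cells with Gzmb and without Tcf7, Entpd1 was found in 8 of 17 CD8 cells labelled KO (47.1%, interval 22.98 to 72.2%) and in 34 of 36 WT CD8 cells (94.4%, interval 81.3 to 99.3%). In cells with Tcf7 and without Gzmb it was found in 0 of 33 CD8 cells labelled KO and 0 of 14 WT CD8 cells. In cells with both genes it was found in 2 of 8 labelled KO and 0 of 2 WT, and in cells with neither in 2 of 16 labelled KO and 1 of 15 WT. The share was thus lower in cells labelled KO among cells with Gzmb and without Tcf7. In the other classes the WT counts were 0 of 14, 0 of 2 and 1 of 15, so a lower share could hardly appear. Whether the difference is confined to 1 class was not tested.

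**Figure D3:**
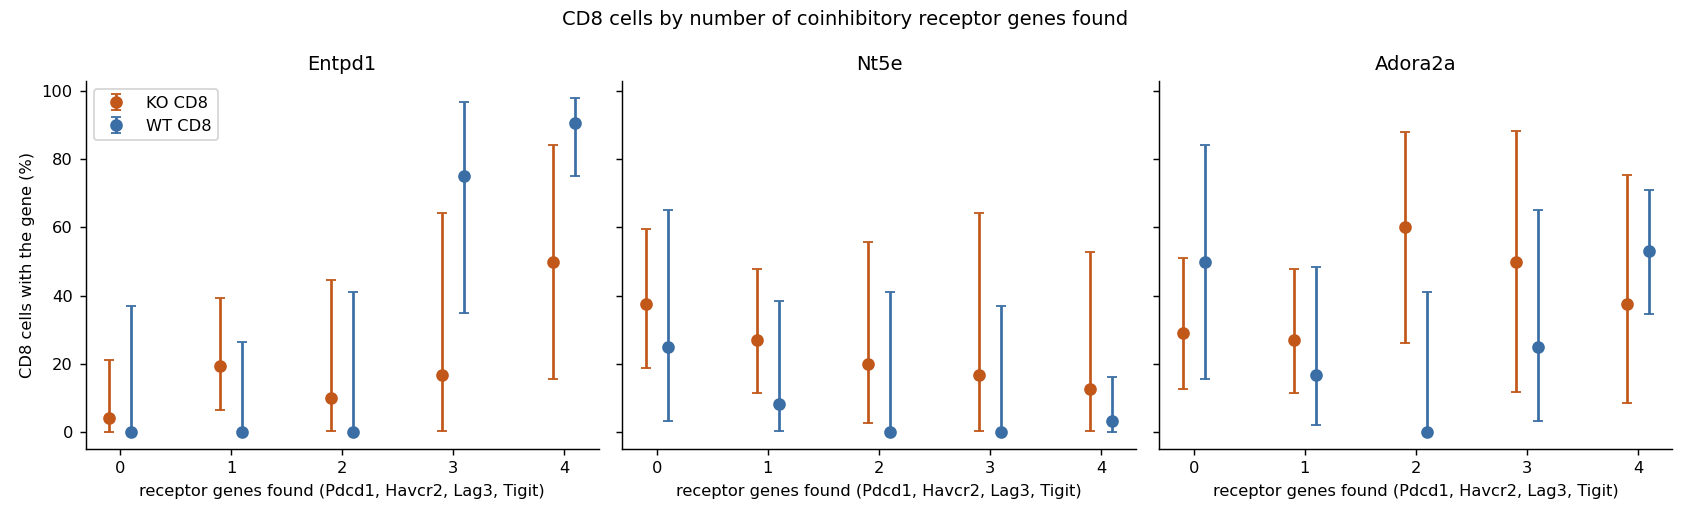
Share of CD8 cells with Entpd1, Nt5e or Adora2a, in percent, by how many of the 4 inhibitory receptor genes were found in the cell. Points are cells labelled KO (orange, left) and WT cells (blue, right), and bars are exact 95% intervals. Entpd1 stands at 0 in WT cells with 0, 1 or 2 receptors and at 75% and 90.6% with 3 and 4.

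In CD4 cells as a whole, Entpd1 went with Foxp3, Il2ra and inhibitory receptor genes. Il2ra was found in 91.3% with and 47.3% without Entpd1 in CD4 cells labelled KO, and in 72.7% with and 29.8% without in WT CD4 cells. Foxp3 was found in 78.3% of the 23 CD4 cells labelled KO with Entpd1 and 38.2% of the 55 without, and in 68.2% of the 22 WT CD4 cells with it and 26.3% of the 57 without. Havcr2 was found in 43.5% with and 20% without in CD4 cells labelled KO, and in 59.1% with and 10.5% without in WT CD4 cells. Pdcd1 was found in 34.8% with and 23.6% without in CD4 cells labelled KO, and in 77.3% with and 19.3% without in WT CD4 cells. Ctla4, a receptor that restrains costimulation, was found in 78.3% with and 60% without in cells labelled KO, and in 22 of 22 with and 50.9% without in WT cells. Il10 was found in 43.5% with and 9.09% without in cells labelled KO, and in 31.8% with and 5.26% without in WT cells. Tcf7 was found in 0 of 23 with and 41.8% without in cells labelled KO, and in 9.09% with and 52.6% without in WT cells. Within Foxp3+ cells alone, Pdcd1 stood at 22.2% with and 19.05% without labelled KO, and at 86.7% and 33.3% in WT. Havcr2 stood there at 50% with and 28.6% without labelled KO, and at 73.3% and 26.7% in WT. Ctla4 stood at 88.9% with and 80.95% without labelled KO, and at 100% in both in WT. Tigit was slightly lower with Entpd1 in both genotypes. The part of Foxp3 in the contrasts over all CD4 cells was not tested.

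The genes most like Entpd1 were ranked by Pearson r of log2(FPKM + 1) over cells, averaged over the 2 genotypes. In 74 CD8 cells labelled KO and 67 WT CD8 cells the highest was Gzmb (mean r 0.65), with Lmnb1 (0.55) and Arsb (0.54) also among the highest 5, and the lowest were Tcf7 (-0.41) and Rorb (-0.35), over 4715 genes. For each of these CD8 genes r was farther from 0 in WT cells than in cells labelled KO. Gzmb had 0.48 labelled KO and 0.82 WT, and Rorb -0.11 labelled KO and -0.59 WT. In CD4 cells the highest were Havcr2 (mean r 0.56), Tnfrsf9 (0.47) and Cst7 (0.47), with Foxp3 (0.45) also among the highest 5, and the lowest were Tcf7 (-0.38), Wdr92 (-0.32) and Ms4a4b (-0.30). Tcf7 is the lowest in both cell types. Cells share depth and gene number, which differ with Entpd1, so these r are descriptions. For Nt5e in CD4 cells and Adora2a in either type the highest mean r was 0.38, and Nt5e was found in too few WT CD8 cells to be ranked.

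Nt5e, the CD73 gene, was higher in CD8 cells labelled KO. It was found in 20 of 74 CD8 cells labelled KO (27.03%, interval 17.4 to 38.6%) and in 4 of 67 WT CD8 cells (5.97%, interval 1.65 to 14.6%). The positive cells also differed in level: the 20 CD8 cells labelled KO ran from 1.78 through a median of 118.2 to 675.4 FPKM, and the 4 WT CD8 cells from 9.41 through 14.96 to 25 FPKM. All but 1 of the positive CD8 cells labelled KO were above 10 FPKM. Mean FPKM was 48.6 in CD8 cells labelled KO and 0.960 in WT CD8 cells, a ratio of 50.6 that rests on those 4 low WT cells. Mean log2(FPKM + 1) was 1.80 ± 3.12 and 0.24 ± 0.96 in the same order (SD over cells), a difference of 1.56.

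The CD8 population libraries had Nt5e at 47.7 FPKM in the one labelled KO and 10.01 FPKM in the WT one, a log2 difference of 2.14. Thinned to 100000 estimated reads, the shares were 26.5% in CD8 cells labelled KO and 7.65% in WT CD8 cells, against 27.4% and 7.69% of the same cells before thinning. None of the 3 CD8 cells labelled KO and 11 WT CD8 cells that lacked B2m or every Cd3 gene held Nt5e, and class II genes were found in 1 of the 20 positive CD8 cells labelled KO (5%) against 22.2% of the 54 others.

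In CD8 cells labelled KO the companion shares of Nt5e ran in part the other way from those of Entpd1, over 20 and 12 positive cells. S1pr1, the receptor for egress from tissue, was found in 80% of the 20 cells with Nt5e and 51.9% of the 54 without, and Il7r in 80% with and 70.4% without. Il2ra was found in 10% with and 35.2% without, Lag3 in 15% with and 33.3% without and Tnfrsf4 in 5% with and 16.7% without. Tcf7 stood at 55% with and 55.6% without. For each of these genes the intervals with and without Nt5e overlap. The medians of genes per cell, 2759 with and 2834 without Nt5e, were close. Around Entpd1 in the same group, S1pr1 stood at 33.3% with and 64.5% without, but at 40% and 36.2% when weighted to equal gene number. The difference between the companions of Nt5e and Entpd1 was not tested. By number of inhibitory receptors the share with Nt5e in CD8 cells labelled KO was 37.5% of 24 cells with none and 12.5% of 8 cells with 4, with intervals of 18.8 to 59.4% and 0.316 to 52.7% that overlap. Of the 4 WT CD8 cells with Nt5e, 3 held Tcf7, 3 held S1pr1 and 4 held Ikzf2.

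In CD4 cells Nt5e was found at like shares in the genotypes, in 24 of 78 labelled KO (30.8%) and 23 of 79 WT (29.1%). Its shares lay closer together across Foxp3 than those of Entpd1: 35.9% of Foxp3+ and 25.6% of Foxp3- cells labelled KO, and 36.7% of Foxp3+ and 24.5% of Foxp3- WT cells, with overlapping intervals. That difference between the 2 genes was not tested. Among positive CD4 cells the median was 226.6 FPKM in those labelled KO and 345.9 FPKM in WT. The CD4 population libraries held 139.3 FPKM in the one labelled KO and 104.8 FPKM in the WT one, more than the CD8 library of the same genotype in each case. Il7r was found in 66.7% of the 24 CD4 cells labelled KO with Nt5e and 62.96% of the 54 without, and in 87% of the 23 WT CD4 cells with it and 57.1% of the 56 without. WT CD8 cells stood lowest of all groups for Nt5e, and their interval of 1.65 to 14.6% overlaps those of both Foxp3- CD4 groups, whose lower bounds are 13.04% labelled KO and 13.3% WT.

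**Figure D4:**
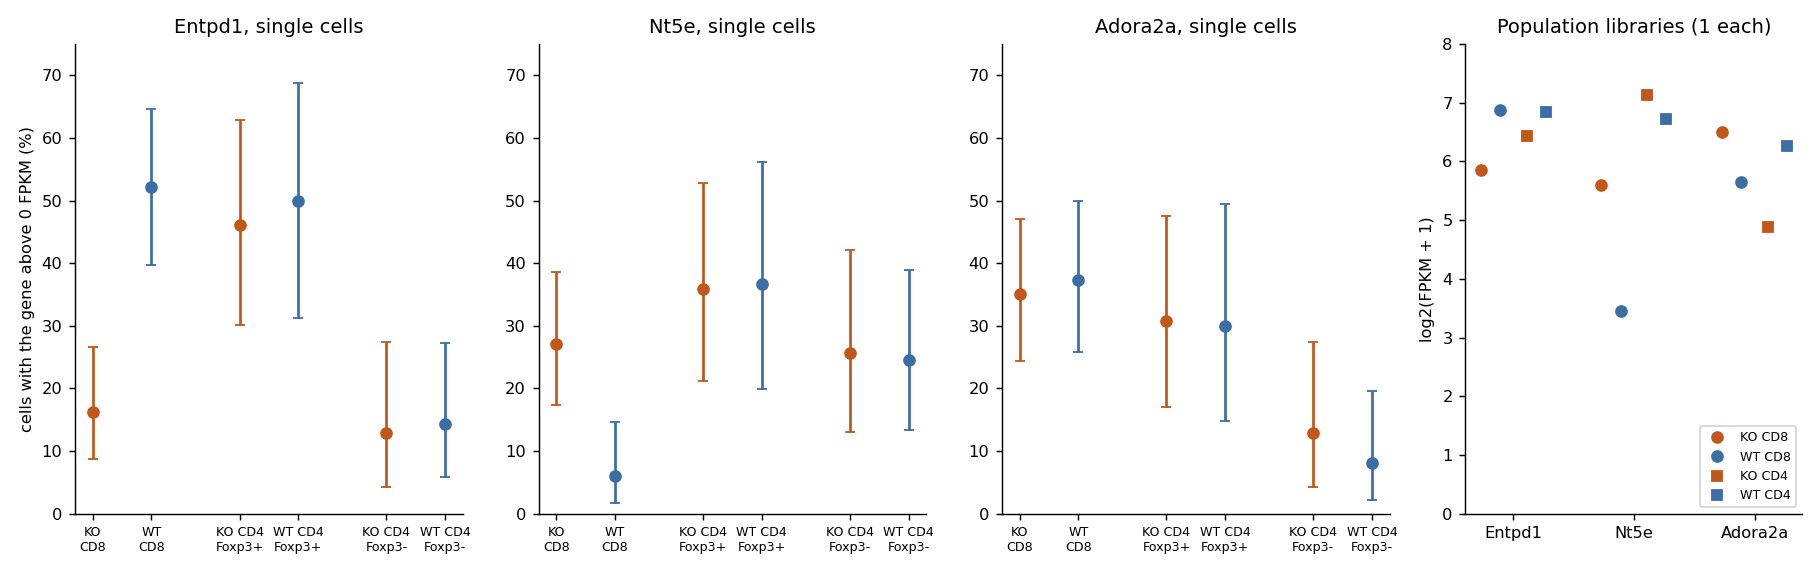
Left 3 panels: share of single cells with Entpd1, Nt5e or Adora2a above 0 FPKM, in percent, with exact 95% intervals, for 6 groups of cells (labelled KO in orange, WT in blue). Right panel: log2(FPKM + 1) of each gene in the 4 population libraries, 1 library each, with CD8 as circles and CD4 as squares. Entpd1 and Nt5e differ in opposite directions between the CD8 groups, 16.2% against 52.2% and 27.03% against 5.97%.

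Adora2a, the receptor gene, was found at like shares in the CD8 cells of both genotypes, 26 of 74 labelled KO (35.1%, interval 24.4 to 47.1%) and 25 of 67 WT (37.3%, interval 25.8 to 49.99%). Its positive cells ran from 5.28 to 539.3 FPKM in CD8 cells labelled KO and from 9.17 to 432.9 FPKM in WT CD8 cells, with medians of 7.26 and 6.27 in log2(FPKM + 1). Mean log2(FPKM + 1) was 2.39 ± 3.46 in CD8 cells labelled KO and 2.37 ± 3.20 in WT CD8 cells, a difference of 0.02 whose sign changed with the setting (-0.58 to 0.70). The population libraries held 89.1 FPKM for CD8 cells labelled KO and 49.01 FPKM for WT CD8 cells, and 28.5 FPKM for CD4 cells labelled KO and 75.8 FPKM for WT CD4 cells. The log2 differences, 0.85 in CD8 and -1.38 in CD4, run in opposite directions and rest on 1 library each.

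Like Entpd1, Adora2a was found more often in Foxp3+ CD4 cells. It was found in 30.8% of Foxp3+ and 12.8% of Foxp3- cells labelled KO, and in 30% of Foxp3+ and 8.16% of Foxp3- WT cells. The intervals overlap in both genotypes, 17.02 to 47.6% with 4.30 to 27.4% and 14.7 to 49.4% with 2.27 to 19.6%. Within WT CD4 cells the share was 1 of 41 where Foxp3 and Il2ra were both at 0 (2.44%) and 3 of 8 where only Il2ra was found. In CD4 cells labelled KO it was 5 of 27 and 0 of 12 for the same 2 kinds. The CD8 shares of Adora2a were above those of all CD4 cells, 35.1% against 21.8% labelled KO and 37.3% against 16.5% WT.

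In CD8 cells Adora2a was spread over both Gzmb-bearing and Tcf7-bearing cells. It was found in 11 of 17 CD8 cells labelled KO with Gzmb and no Tcf7 and in 9 of 33 with Tcf7 and no Gzmb. In WT CD8 cells these counts were 18 of 36 and 6 of 14, and 0 of 15 WT cells with neither gene held it. Prdm1, the effector factor Blimp-1, was found with Adora2a more often than without, in 30.8% against 10.4% of CD8 cells labelled KO and 48% against 16.7% of WT CD8 cells. Il2ra was found in 46.2% with and 18.8% without in CD8 cells labelled KO, and in 16% with and 23.8% without in WT CD8 cells. Medians of genes per cell were 2804 with and 2796 without Adora2a labelled KO, but 3399 with and 2604.5 without in WT. The 11 WT CD8 cells that lacked B2m or every Cd3 gene all had Adora2a at 0. The part of depth in these companion shares was not tested.

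The 3 genes were seldom all found in 1 cell. All 3 were above 0 in 1 of 74 CD8 cells labelled KO and 1 of 67 WT CD8 cells, and in 5 of 78 CD4 cells labelled KO and 5 of 79 WT CD4 cells. All 5 such CD4 cells labelled KO were Foxp3+, as were 3 of the 5 WT ones. The pair of enzymes, Entpd1 with Nt5e, was found in 3 CD8 cells labelled KO and 1 WT CD8 cell, against 10 CD4 cells of each genotype. In CD8 cells labelled KO, Nt5e was found in 25% of those with and 27.4% of those without Entpd1, and in WT CD8 cells in 2.86% with and 9.38% without, so few joint cells go with low shares of the single genes. Entpd1 with Adora2a was found in 5 CD8 cells labelled KO and 17 WT CD8 cells. None of the 3 genes was found in 29 CD8 cells labelled KO (39.2%), 22 WT CD8 cells (32.8%), 35 CD4 cells labelled KO (44.9%) and 40 WT CD4 cells (50.6%).

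Within CD4 cells as a whole, Nt5e and Adora2a were found more often beside Entpd1, and each of the 3 genes was also more frequent in Foxp3+ cells. Nt5e was found in 43.5% of CD4 cells labelled KO with Entpd1 and 25.5% of those without, and in 45.5% and 22.8% of WT CD4 cells in the same order. Adora2a was found in 34.8% with and 16.4% without Entpd1 in CD4 cells labelled KO, and in 31.8% with and 10.5% without in WT CD4 cells. In WT CD8 cells Adora2a was found in 48.6% with and 25% without Entpd1. Each pair of intervals overlaps. Within Foxp3- cells labelled KO, Adora2a ran the other way, in 0 of 5 with and 14.7% of 34 without Entpd1. In Foxp3+ cells it was found in 44.4% with and 19.05% without labelled KO, and in 33.3% with and 26.7% without in WT. In Foxp3- WT cells it was found in 28.6% of 7 with and 4.76% of 42 without. Nt5e was found more often with Entpd1 in each Foxp3 class of both genotypes, with overlapping intervals.

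The same differences were computed for a list of 33 genes of extracellular nucleotide and adenosine handling. A gene counted as measured when above 0 in at least 10% of cells of either group, and as past the threshold at a difference of 1 or more in mean log2(FPKM + 1), with no test. In CD8 cells 17 were measured. Nt5e and P2ry10, a receptor of the P2Y family, were higher in cells labelled KO (2 of 17, against 5.94% of all 9031 measured genes), and Entpd1, Cd38, Adk and Slc29a1 were lower (4 of 17, against 3.82%). Entpd1 and Nt5e were known beforehand to differ in these CD8 cells, so each of the 2 counts holds a gene placed there by choice. Neither count can therefore be read as a result about the list. Cd38 encodes an enzyme that consumes NAD, Adk adenosine kinase, and Slc29a1 a nucleoside transporter. The list median was -0.003 and that of all genes -0.08, with 8 members above and 9 below 0.

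P2ry10 was found in 77.03% of CD8 cells labelled KO and 52.2% of WT CD8 cells, with a difference of 1.89. Cd38 was found in 32.4% labelled KO and 49.3% WT (-1.38), Slc29a1 in 18.9% labelled KO and 37.3% WT (-1.26), and Adk in 6.76% labelled KO and 22.4% WT (-1.02). The CD8 population libraries did not all follow: Slc29a1 stood at 195.5 FPKM in the one labelled KO and 172.3 FPKM in the WT one, and Adk at 93.04 and 87.7 FPKM in the same order.

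In CD4 cells 16 of the 33 were measured. Panx1, a channel that releases ATP, was higher in cells labelled KO (1 of 16, against 7.73% of all genes, difference 1.02) and none was lower (against 0.342%). Here the median of all measured genes was 0.17, towards cells labelled KO, which also had the higher estimated depth. The list median was 0.26.

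**Figure D5:**
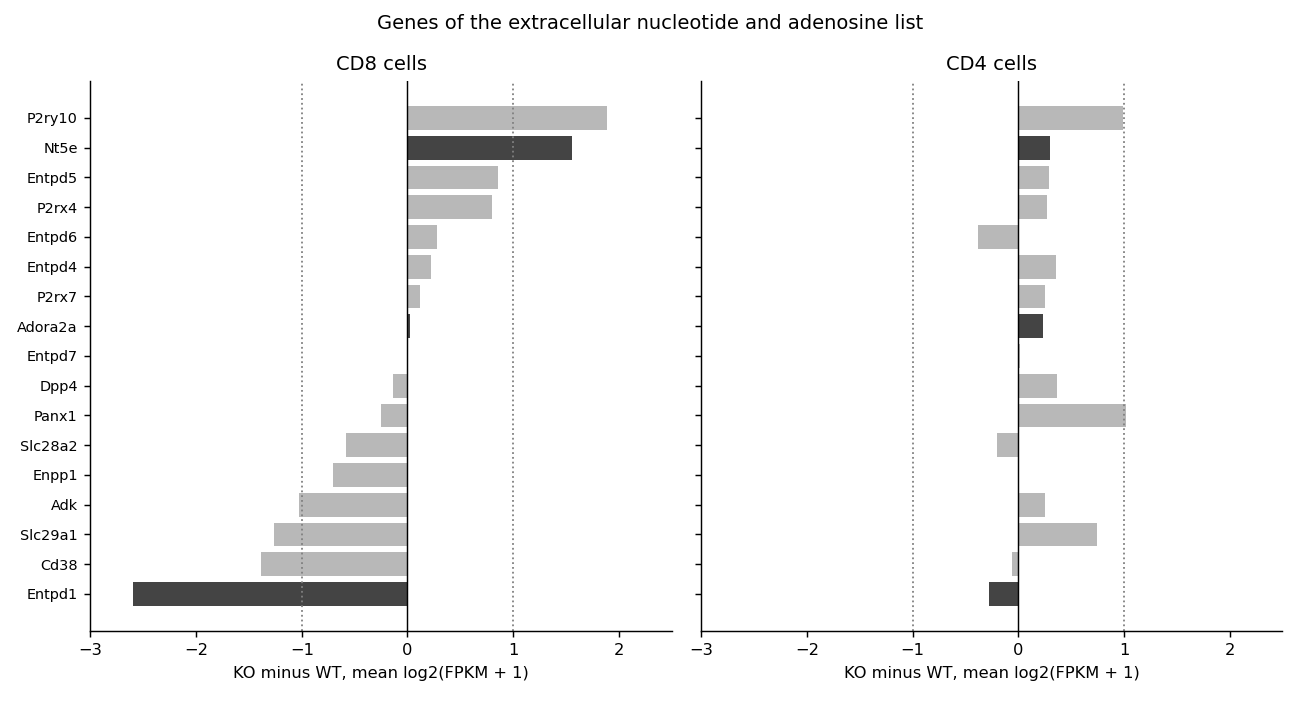
Difference in mean log2(FPKM + 1), cells labelled KO minus WT cells, for the measured genes of the nucleotide and adenosine list, in CD8 cells (left) and CD4 cells (right). Dark bars are Entpd1, Nt5e and Adora2a, dotted lines mark differences of 1 either way, and a gene without a bar was not measured in that cell type. Entpd1 (-2.60) and Nt5e (1.56) lie at or near the ends in CD8 cells and within the dotted lines in CD4 cells.

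Between Foxp3+ and Foxp3- CD4 cells, 4 of 17 list members were higher in Foxp3+ cells labelled KO (Entpd1, Nt5e, Slc29a1 and Panx1, against 14.9% of all genes) and none was lower (against 2.99%). In WT cells 5 of 17 were higher in Foxp3+ cells (Entpd1, Nt5e, Adora2a, Adk and P2ry10, against 22.7%) and none was lower (against 1.73%). Entpd1 had the largest difference of the list in both, 2.49 labelled KO and 2.94 WT. The list medians were 0.26 labelled KO and 0.58 WT, and those of all genes 0.19 and 0.38 in the same order.

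Between CD8 and CD4 cells labelled KO, 16 members were measured, Dpp4 was higher in CD8 (against 7.70% of all genes) and Adk lower (against 2.79%). Dpp4 encodes CD26, a surface protease that binds adenosine deaminase. In WT cells 6 of 17 were higher in CD8 (Entpd1, Cd38, Adora2a, Dpp4, Slc29a1 and Panx1, against 14.1%) and 3 were lower (Nt5e, P2rx4 and P2ry10, against 2.08%). The difference for Nt5e was -0.60 labelled KO and -1.85 WT, and that for Adora2a 0.98 labelled KO and 1.19 WT.

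Of the close relatives of CD39, the surface enzyme genes Entpd2, Entpd3 and Entpd8 were at 0 in every cell used. Entpd5 was found in 32.4% of CD8 cells labelled KO and 16.4% of WT CD8 cells, Entpd4 in 25.7% labelled KO and 23.9% WT, and Entpd6 in 20.3% labelled KO and 13.4% WT. These 3 encode relatives that act mainly inside the cell or are secreted. The other adenosine receptor genes were found in 0 cells for Adora1, 1 cell for Adora2b and 5 cells for Adora3, so Adora2a was the adenosine receptor gene with the highest share in every group. In the CD4 population libraries Adora2b stood at 16.8 FPKM labelled KO and 23.9 FPKM WT, and Adora3 at 0 labelled KO and 14.6 FPKM WT. Alpl, a phosphatase that can also act on AMP, was at 0 in every cell used. Ada, which encodes the deaminase that removes adenosine, was found in 2 CD8 cells and 6 CD4 cells labelled KO, and in 5 CD8 and 0 CD4 WT cells.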

How the data were processed

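Smart-seq2 libraries of 374 single T cells and 4 cell populations were grouped by the genotype and cell type in their titles, 8 groups in all. The authors deposited FPKM values scaled across libraries with TMM, per the labels, and Bowtie and RSEM with mm10 are named in the submitters' processing notes, with versions and annotation not given in the sources used here. FPKM hides depth and RSEM shares reads between similar transcripts. All 378 columns were matched by title.

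Single cells with at least 1000 genes above 0 were kept. Mean log2(FPKM + 1), shares of cells above 0 and exact intervals were computed in Python 3.11.15 with scipy 1.17.1. Reads per library were estimated from the steps of low values with GENCODE M21 transcript lengths, with a median of 56.4 to 58.2% of low values within 0.1 of a whole read per group, so the estimate is rough. The labels mention no molecular identifiers, and amplified copies cannot be told from separate molecules. No doublet caller was run on these plate-based libraries. The difference and ranking steps and the depth estimate were checked on simulated data. Most-like genes were the 5 highest and 3 lowest by mean r among genes in at least 20% of cells of both genotypes, and some genes are not reported here. The genes, their companion genes, the nucleotide list and the 13 marker lists were chosen with earlier results of these data known. Alternatives covered pseudocounts, gene minimums, doubted cells, depth, scaling and the summary over cells.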

Additional observations from a re-analysis of the deposited data

Results flagged for a closer look

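Entpd1 stood out because its difference between CD8 and CD4 cells ran in opposite directions in the 2 genotypes. CD8 minus CD4 in mean log2(FPKM + 1) was -0.69 in cells labelled KO and 1.63 in WT cells, with ranges over the processing alternatives of -1.26 to -0.33 and 0.26 to 2.43. The difference between these was not tested, since each is 1 sample. The population libraries held 57.1 FPKM for CD8 and 85.5 FPKM for CD4 cells labelled KO, against 116.1 FPKM for CD8 and 113.2 FPKM for CD4 WT cells, so the WT libraries were nearly level.

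Adora2a stood out in the population libraries, where the log2 difference of the library labelled KO from the WT library was 0.85 for CD8 cells and -1.38 for CD4 cells. This too was not tested and rests on 4 libraries. The single cells gave 0.02 in CD8 and 0.23 in CD4, so they did not show the same opposition. In the same 4 libraries Il27ra differed by 0.92 for CD8 and -1.42 for CD4 cells, P2rx4 by 1.55 and -1.48, and P2ry10 by 1.69 and -1.07.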

How the results depend on the processing

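No difference of 1 or more changed sign under any alternative. Among differences of 1 or more in mean log2(FPKM + 1), 23 values moved by over 1.5 times, and 2 differences in shares left the 95% intervals of their groups. Entpd1 in CD8 cells, labelled KO minus WT, lay between -3.78 and -1.47 over 11 alternatives and was negative in all. Smaller differences moved by such factors too: Adora2a in CD8 cells lay between -0.58 and 0.70, with either sign, and Nt5e in CD4 cells between 0.04 and 0.70. With every single-cell library used, Entpd1 was -1.66 (-23.1 percentage points) for labelled KO minus WT in CD8 and 0.90 (13.8 points) for CD8 minus CD4 in WT, and Adora2a was 0.70 for CD8 minus CD4 in WT. With a pseudocount of 10, Entpd1 was -1.47 for labelled KO minus WT in CD8, 1.39 labelled KO and 1.80 WT for Foxp3+ minus Foxp3-, and 0.87 for CD8 minus CD4 in WT. Nt5e was then 0.89 for labelled KO minus WT in CD8, 1.01 for Foxp3+ minus Foxp3- in WT and -1.13 for CD8 minus CD4 in WT, and Adora2a was 1.11 for Foxp3+ minus Foxp3- and 0.53 for CD8 minus CD4 in WT. A pseudocount of 0.1 gave 1.88 for Adora2a, CD8 minus CD4 in WT. The log2 ratio of mean FPKM + 1 gave 0.31 for Entpd1, -5.58 for Nt5e and 0.18 for Adora2a in CD8 minus CD4 of WT, 4.66 for Nt5e in labelled KO minus WT of CD8, and 2.87 for Adora2a in Foxp3+ minus Foxp3- of WT. Matching on genes detected gave 0.26 for Entpd1 and 0.53 for Adora2a in CD8 minus CD4 of WT, 1.91 for Entpd1 in Foxp3+ minus Foxp3- of WT, and 0.80 labelled KO and 0.95 WT for Nt5e in that contrast. The log2 ratio of means follows the cells with the most RNA, the log mean the share of cells at 0. No paired analysis was possible because no result comes from a test. The spread between animals is unknown with 1 sample per genotype and cell type, so genotype and animal cannot be told apart. The titles mark the WT CD4 libraries p3 and the others p2, so contrasts with WT CD4 cannot be told apart from that mark. Each genotype and cell type also has its own title word, so no contrast between them can be told apart from that word.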
